A study of Mus musculus with 6 samples.

Results

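The 37 genes described here mark the main neuron classes of the embryonic forebrain. They form a list of 20 excitatory neuron genes, from Tbr1 to Crym, and a list of 17 inhibitory lineage genes, from Dlx1 to Npy. They were taken by symbol from a count table of 52459 symbols, in which all 37 were present, and all 37 passed the filter on low counts that left 19565 genes for testing. RNA was sequenced from the whole brain of C57BL/6 mouse embryos of stage E14.5. The knockout group held 3 libraries from embryos of genotype Mfsd7c-/-, and the wild-type group held 3 libraries from embryos without that mutation. The labels name no treatment, litter, sex or deleted part of the gene. The p-values set the difference between the groups against the spread within them, for these 6 samples, with no term for litter or sex. The comparison asks whether transcripts of forebrain neuron identity differ between brains with and without Mfsd7c, a membrane transporter gene now called Flvcr2.

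Cortical excitatory neurons use glutamate and arise from progenitors of the dorsal forebrain. Transcription factors such as Tbr1, Fezf2 and Bcl11b set their layer and projection type. Inhibitory neurons use GABA and arise mainly from the ganglionic eminences of the ventral forebrain, where Dlx genes act in the precursors and Nkx2-1 and Lhx6 mark the medial eminence. The lists are not exclusive to these cells: Bcl11b and Foxp2 are also expressed in striatal projection neurons, and Slc17a6, Gad1, Gad2, Slc32a1, Reln and Isl1 also in midbrain, hindbrain or spinal neurons. In whole brain RNA, fewer cells of a type and less RNA per cell cannot be told apart.

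Libraries held 43784619 to 50549673 counts. Mfsd7c, the gene named in the genotype, was at 2.54 to 2.76 CPM (counts scaled to a common library size) in the knockout libraries and at 4.64 to 5.79 CPM in the wild-type libraries. Forebrain tissue was present in each library, where 12 forebrain regional genes summed to 673 to 794 CPM. Wild-type replicates 2 and 3 stood apart in Hoxb3, a hindbrain and spinal cord gene, at 14.3 and 6.28 CPM against 0.0394 to 0.676 CPM in the other 4 libraries. Knockout replicate 1 and wild-type replicate 1 stood apart in the epidermal keratin Krt5, at 105 and 79.9 CPM against 0.339 to 20.4 CPM. Embryonic forms made up 23.3% to 26.5% of beta-globin counts in knockout replicate 2 and wild-type replicates 2 and 3, and 2.80% to 5.03% in the other 3 libraries. Wild-type replicate 2 had 82198 Xist counts, a transcript of female cells, against 6 to 27 in the other 5. Results that turn on the libraries that stand apart are given with and without them.

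Of the 37 genes, 1 passed the test. Dlx2, a homeodomain factor of ventral forebrain precursors, rose 1.39-fold in the knockout brains. None of the 20 excitatory genes passed, 0 of the 37 fell, and 36 did not pass in either direction (edgeR quasi-likelihood test, false discovery rate of 0.05 over all genes). That 1 is 2.70% of the members, against 0.659% of all 19565 genes, of which 0.624% were called higher and 0.0358% lower. At an unadjusted p under 0.05, 6 members were counted (Pou3f2, Cux1, Sox5, Nfia, Dlx2 and Sp9), or 16.2%, against 8.09% of all genes. The 3 knockout values lay above the 3 wild-type values for 6 members (Pou3f2, Cux1, Nfia, Nfib, Dlx2 and Gad1), or 16.2%, against 7.84% of all genes. They lay below for 0 members, against 6.58% of all genes. In either direction the background was 14.4%.

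Fold changes were small. The median log2 fold change, knockout over wild-type, was 0.15 over the excitatory genes, with 16 above 0 and 4 below. It was 0.13 over the inhibitory genes, with 15 above 0 and 2 below. Without the wild-type libraries high in Hoxb3 the inhibitory median turned to -0.025, with 8 of 17 above 0, and without knockout replicate 1 the excitatory median was 0.062. Over all tested genes the median was -0.01, with 9267 above 0 and 10298 below. In 35 of the 37 members the change was under 1.2-fold in either direction, and the exceptions were Dlx2 and Pou3f2. The median standard error was 0.091 for excitatory and 0.12 for inhibitory genes, and most members' changes were within 2 standard errors of 0.

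**Figure D1:**
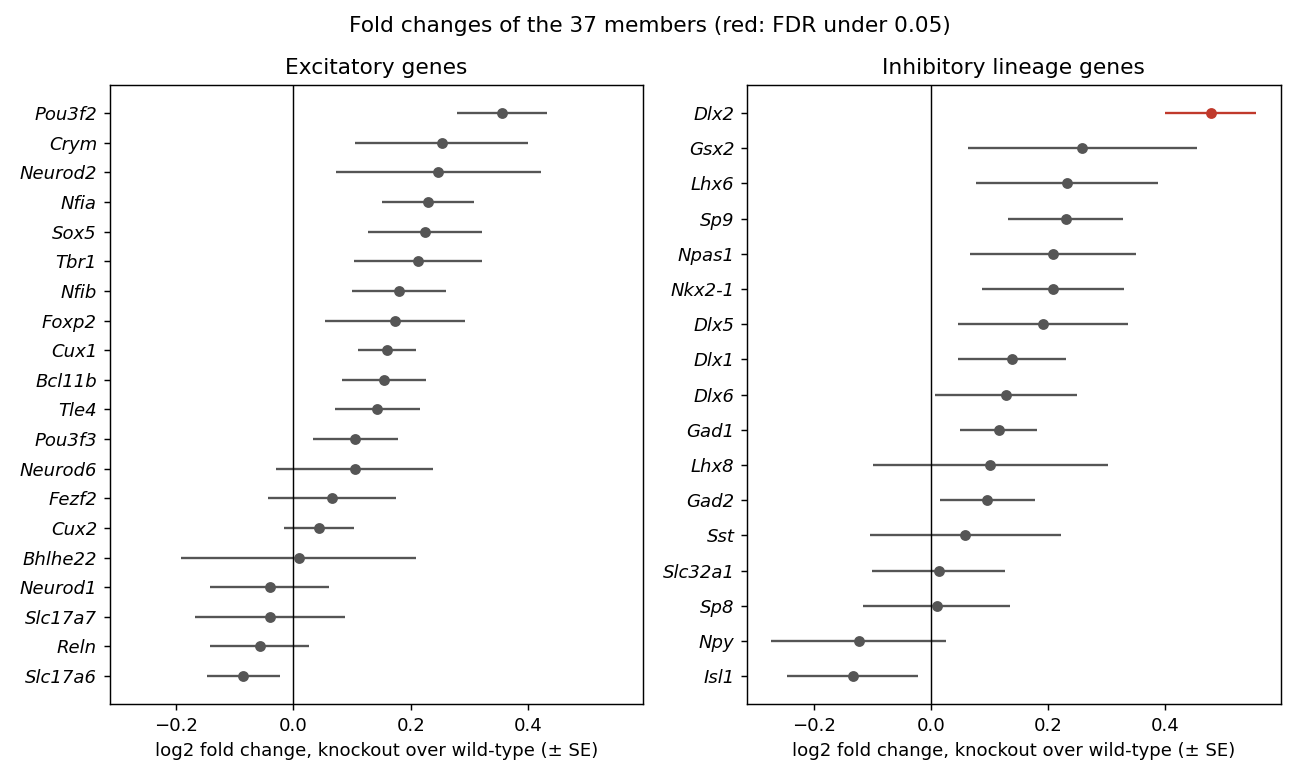
Each point is the log2 fold change of 1 gene, knockout over wild-type, from the edgeR fit, with a bar of 1 standard error to each side, for the 20 excitatory genes (left) and the 17 inhibitory lineage genes (right). Dlx2, in red, at 0.48, is the gene past a false discovery rate of 0.05, and Pou3f2 at 0.36 is the highest of the excitatory genes.

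Among the inhibitory lineage genes, the Dlx factors act in ventral forebrain precursors. They lie in linked pairs, Dlx1 with Dlx2 on chromosome 2 and Dlx5 with Dlx6 on chromosome 6. In the values that follow, CPM are scaled by the TMM method and given for replicates 1, 2 and 3 in that order. In the knockout libraries Dlx2 was at 62.1, 54.2 and 54.0 CPM, and in the wild-type libraries at 43.3, 40.2 and 38.8 CPM. Every knockout library was above every wild-type library. Knockout brains averaged 56.8 ± 4.61 CPM (SD, n = 3) and wild-type brains 40.8 ± 2.29 CPM (SD, n = 3), which the fit put at 0.48 as a log2 fold change (standard error 0.0780, edgeR adjusted p = 0.0371). Of the 3 libraries rich in embryonic beta-globin, the knockout library had 54.2 CPM and the wild-type libraries 40.2 and 38.8. In the other 3 libraries the knockout values were 62.1 and 54.0 CPM and the wild-type value 43.3. As the groups did not overlap, the order within these subsets was fixed in advance and adds no support.

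The call of Dlx2 depended on which libraries entered, while its fold change moved little. Leaving out knockout replicates 1, 2 and 3 in turn gave edgeR adjusted p of 0.137, 0.0808 and 0.169. Leaving out wild-type replicates 1, 2 and 3 in turn gave 0.00948, 0.222 and 0.208, so the call held without wild-type replicate 1 and was lost without any of the other 5. Across these fits the log2 fold change was between 0.41 and 0.52. Without both wild-type libraries high in Hoxb3, which leaves a lone wild-type library whose spread is taken from the knockout libraries, it was 0.39 (edgeR adjusted p = 0.349). Without the pair of libraries high in Krt5 it was 0.45 (edgeR adjusted p = 0.00586). In the authors' deposited table Dlx2 had a log2 fold change of 0.48 with a DESeq2 adjusted p of 3.6e-05. That table rests on the same 6 libraries and is no separate evidence.

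Its linked partner was measured in the same libraries. The values of Dlx1 were 163, 168 and 139 CPM in knockout and 157, 139 and 131 CPM in wild-type libraries. The groups overlapped, and knockout replicate 3 was below wild-type replicates 1 and 2. The log2 fold change of Dlx1 was 0.14 (standard error 0.0920, edgeR adjusted p = 0.758). Within a library, the ratio of Dlx2 CPM to Dlx1 CPM was 0.381, 0.322 and 0.390 in knockout replicates and 0.276, 0.289 and 0.297 in wild-type replicates. This ratio, which was computed after the values were seen, did not overlap between the groups. It was not tested. Reads of Dlx1 and its antisense transcript Dlx1as, which share 335 bases of exon, cannot be told apart where counting ignored strand, and Dlx1as had a mean of 636 counts against 7118 for Dlx1.

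Dlx5 and Dlx6 act later in the same precursors and in early neurons. For Dlx5, the 3 knockout libraries gave 21.5, 22.2 and 22.7 CPM and the 3 wild-type libraries 24.6, 16.5 and 17.1 CPM. Dlx6 stood at 13.2, 12.5 and 12.5 CPM in knockout and at 13.7, 10.9 and 10.4 CPM in wild-type libraries. For both genes wild-type replicate 1 was the highest library and wild-type replicates 2 and 3 were below the other 4. The log2 fold changes were 0.19 (standard error 0.145) for Dlx5 and 0.13 (standard error 0.121) for Dlx6, with edgeR adjusted p of 0.797 and 0.837. Without wild-type replicate 1 Dlx5 passed at 0.40 (edgeR adjusted p = 0.0378). Without the wild-type libraries high in Hoxb3, Dlx5 turned to -0.15 and Dlx6 to -0.10.

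**Figure D2:**
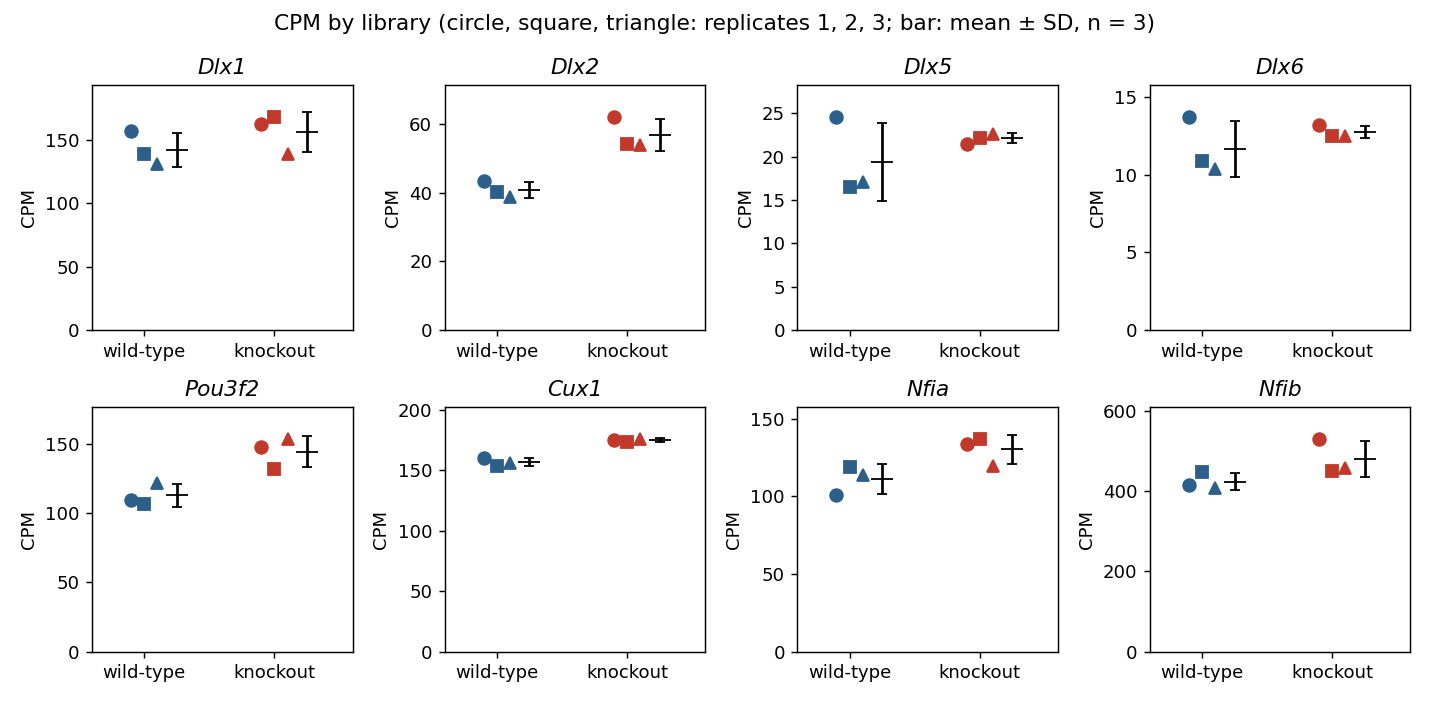
CPM of 8 genes in each library, wild-type in blue and knockout in red, with circles, squares and triangles for replicates 1, 2 and 3 and black bars for the mean ± SD (n = 3); each vertical axis starts at 0. Dlx2, Pou3f2, Cux1, Nfia and Nfib show no overlap between the groups, while Dlx1, Dlx5 and Dlx6 overlap, with wild-type replicate 1 the highest library for Dlx5 and Dlx6.

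The 250 bases before the transcription start are shown for Dlx2 and Pou3f2, the members with the lowest p-values in their lists. Sequences were read from RefSeq windows on GRCm38.p6, in which 31 of the 37 members matched. The gene Dlx2 spans chr2:71543408-71546754 and Pou3f2 chr4:22482780-22488366 in GENCODE M21, both on the minus strand, and the windows are chr2:71546755-71547004 and chr4:22488367-22488616. Both windows lie outside annotated exons of GENCODE M21. Each is written 5′ to 3′, and capitals mark ACGTG on either strand, the core bound by hypoxia-inducible factors, with overlapping matches joined.
Dlx2: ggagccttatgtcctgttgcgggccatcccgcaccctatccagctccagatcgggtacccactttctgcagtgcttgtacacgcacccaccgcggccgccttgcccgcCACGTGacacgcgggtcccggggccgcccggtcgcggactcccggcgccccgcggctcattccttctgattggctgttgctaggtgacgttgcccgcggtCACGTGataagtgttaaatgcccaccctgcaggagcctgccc
Pou3f2: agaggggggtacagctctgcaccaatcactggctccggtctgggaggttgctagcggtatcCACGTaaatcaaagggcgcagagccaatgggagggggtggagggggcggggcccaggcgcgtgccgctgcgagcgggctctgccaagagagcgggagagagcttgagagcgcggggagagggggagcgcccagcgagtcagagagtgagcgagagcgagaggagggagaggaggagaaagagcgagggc
The Dlx2 window held 2 such places, each the palindrome CACGTG, which is also a match to the E-box CANNTG, and the Pou3f2 window held 1. ACGTG was present in 16.6% of all 32851 windows of this length and in 10 of the 38 windows of members (26.3%). Neither window held TAATTA, a homeodomain core found in 4.84% of windows. CANNTG was present in 66.2% of all windows and was not found in that of Pou3f2. These matches describe letters in a window and no binding was measured.

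Factors that pattern the ventral progenitors come next. Gsx2, which specifies the lateral eminence, was scarce. Levels of Gsx2 came to 4.52, 4.08 and 3.38 CPM in the knockout and 2.59, 3.50 and 3.91 CPM in the wild-type libraries. Wild-type replicate 1 was lowest and the groups overlapped. Nkx2-1 specifies the medial eminence and also marks part of the hypothalamus. Nkx2-1 measured 35.5, 46.8 and 41.5 CPM in the knockout libraries and 33.0, 41.1 and 33.2 CPM in the wild-type libraries. Knockout replicate 2 was highest and wild-type replicate 2 lay within the knockout range. The log2 fold changes were 0.26 (standard error 0.196) for Gsx2 and 0.21 (standard error 0.121) for Nkx2-1, with edgeR adjusted p of 0.794 and 0.718.

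Lhx6, which acts below Nkx2-1 in migrating interneurons, ranged widely in wild-type brains. In the knockout libraries Lhx6 was at 54.9, 56.4 and 49.8 CPM, and in the wild-type libraries at 56.9, 45.3 and 35.1 CPM. The highest and the lowest library were both wild-type, replicates 1 and 3. Lhx8, needed for cholinergic neurons of the basal forebrain, had its highest value in knockout replicate 2 and its lowest in knockout replicate 3. The values of Lhx8 were 11.03, 16.1 and 9.18 CPM in knockout and 12.4, 11.8 and 9.76 CPM in wild-type libraries. With log2 fold changes of 0.23 (standard error 0.155) and 0.10 (standard error 0.201), neither gene passed (edgeR adjusted p = 0.759 and 0.935).

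Sp8 and Sp9 are zinc finger factors of interneuron and striatal precursors. For Sp9, the 3 knockout libraries gave 42.3, 39.6 and 44.9 CPM and the 3 wild-type libraries 41.3, 34.1 and 32.8 CPM. Wild-type replicates 2 and 3 were the lowest, and wild-type replicate 1 lay within the knockout range. Sp9 had a log2 fold change of 0.23 (standard error 0.0981, edgeR adjusted p = 0.600), and 270 bases of its exons overlap Cir1 on the other strand. Sp8 was at 14.6 to 17.9 CPM in knockout and 14.4 to 18.97 CPM in wild-type libraries, a log2 fold change of 0.0096 (standard error 0.125). Isl1, a factor of striatal projection neurons and motor neurons, was the member with the most negative value, -0.13 (standard error 0.112, edgeR adjusted p = 0.817). Isl1 stood at 27.0, 33.0 and 36.3 CPM in knockout and at 33.4, 34.0 and 38.3 CPM in wild-type libraries. Knockout replicate 1 was lowest and wild-type replicate 3 highest.

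Levels of Npas1 came to 8.67, 7.63 and 9.16 CPM in the knockout and 8.66, 6.48 and 6.90 CPM in the wild-type libraries. This basic helix-loop-helix factor of pallidal and cortical interneurons thus had its 2 lowest values in wild-type replicates 2 and 3, and a log2 fold change of 0.21 (standard error 0.142, edgeR adjusted p = 0.761).

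GABA is made by the glutamate decarboxylases of Gad1 and Gad2 and loaded into vesicles by the transporter of Slc32a1. Gad1 measured 112, 113 and 129 CPM in the knockout libraries and 112, 109 and 106 CPM in the wild-type libraries. Unrounded, the knockout libraries were all above the wild-type libraries, by less than 1 CPM at the nearest pair. The log2 fold change of Gad1 was 0.12 (standard error 0.0654, edgeR adjusted p = 0.713). In the knockout libraries Gad2 was at 92.6, 114 and 113 CPM, and in the wild-type libraries at 103, 96.8 and 99.0 CPM. Knockout replicate 1 was the lowest of the 6 libraries for Gad2, and the log2 fold change was 0.10 (standard error 0.0812, edgeR adjusted p = 0.819). The values of Slc32a1 were 44.8, 41.0 and 52.2 CPM in knockout and 52.0, 41.3 and 43.4 CPM in wild-type libraries. The groups covered nearly the same range, with a log2 fold change of 0.013 (standard error 0.113, edgeR adjusted p = 0.987). Slc32a1 shares 24.9% of its exon length with the antisense gene Gm14205, which had a mean of 9.8 counts.

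Sst and Npy encode peptides of interneuron subtypes. For Sst, the 3 knockout libraries gave 86.9, 68.8 and 65.8 CPM and the 3 wild-type libraries 88.6, 62.5 and 61.6 CPM. Wild-type replicate 1 and knockout replicate 1, the libraries high in Krt5, were the highest. Npy stood at 12.2, 10.3 and 9.70 CPM in knockout and at 13.98, 11.2 and 9.94 CPM in wild-type libraries. The same pair was highest for Npy. Log2 fold changes were 0.059 (standard error 0.163) and -0.12 (standard error 0.149), and neither passed (edgeR adjusted p = 0.956 and 0.879).

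Turning to the excitatory genes, the POU factors Pou3f2 and Pou3f3 and the CUT factors Cux1 and Cux2 act in upper-layer neurons and their progenitors. Levels of Pou3f2 came to 147, 132 and 154 CPM in the knockout and 109, 107 and 122 CPM in the wild-type libraries. All 3 knockout values were above all 3 wild-type values. Knockout brains averaged 144 ± 11.3 CPM (SD, n = 3) and wild-type brains 113 ± 8.20 CPM (SD, n = 3), and the fitted log2 fold change was 0.36 (standard error 0.0766). Pou3f2 did not pass in edgeR (adjusted p = 0.133) while the authors' deposited table, from the same 6 libraries, gives it a DESeq2 adjusted p of 0.00889. Over fits with single libraries left out its log2 fold change was 0.31 to 0.42, with edgeR adjusted p from 0.0721 to 0.650.

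Cux1 measured 176, 174 and 176 CPM in the knockout libraries and 160.4, 154 and 156 CPM in the wild-type libraries. The groups did not overlap and the spread within each was narrow, with SDs of 1.38 CPM in knockout and 3.43 CPM in wild-type (n = 3). The log2 fold change of Cux1 was 0.16 (standard error 0.0499, edgeR adjusted p = 0.393). In the knockout libraries Cux2 was at 87.1, 81.2 and 91.9 CPM, and in the wild-type libraries at 82.7, 86.2 and 83.5 CPM. Here the groups overlapped, with a log2 fold change of 0.044 (standard error 0.0592, edgeR adjusted p = 0.894). The values of Pou3f3 were 425, 370.5 and 386 CPM in knockout and 355, 357 and 385 CPM in wild-type libraries. The highest library for Pou3f3 was knockout replicate 1, and the log2 fold change was 0.11 (standard error 0.0720, edgeR adjusted p = 0.761).

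Nuclear factor I genes act in cortical progenitors and young neurons. For Nfia, the 3 knockout libraries gave 134, 137 and 119.6 CPM and the 3 wild-type libraries 101, 119 and 114 CPM. Nfib stood at 531, 451 and 459 CPM in knockout and at 416, 448 and 409 CPM in wild-type libraries. In both genes each knockout value was above each wild-type value, with knockout replicate 3 and wild-type replicate 2 nearly equal for Nfia. The log2 fold changes were 0.23 (standard error 0.0785) for Nfia and 0.18 (standard error 0.0800) for Nfib, and neither passed (edgeR adjusted p = 0.469 and 0.627). With the share of embryonic beta-globin as a covariate, Nfia passed at 0.28 (edgeR adjusted p = 0.0440).

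Deep-layer identity is set by Tbr1, Bcl11b, Fezf2 and Sox5, with Tle4, Foxp2 and Crym as markers. Levels of Tbr1 came to 186, 152 and 135 CPM in the knockout and 143, 129.9 and 136 CPM in the wild-type libraries. The first knockout library was far above the rest, and knockout replicate 3 was below wild-type replicates 1 and 3. The log2 fold change of Tbr1 was 0.21 (standard error 0.109, edgeR adjusted p = 0.681). Bcl11b measured 298, 308 and 276 CPM in the knockout libraries and 285, 254 and 254 CPM in the wild-type libraries. Wild-type replicates 2 and 3 were lowest, and wild-type replicate 1 was above knockout replicate 3, with a log2 fold change of 0.15 (standard error 0.0720, edgeR adjusted p = 0.641). In the knockout libraries Fezf2 was at 78.7, 56.3 and 68.8 CPM, and in the wild-type libraries at 62.3, 66.2 and 66.2 CPM. Knockout replicates were both the highest and the lowest for Fezf2, whose log2 fold change was 0.066 (standard error 0.109, edgeR adjusted p = 0.916).

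The values of Sox5 were 182, 138 and 162 CPM in knockout and 144, 139.6 and 128 CPM in wild-type libraries. Knockout replicate 1 was highest and knockout replicate 2 was below wild-type replicates 1 and 2, giving a log2 fold change of 0.22 (standard error 0.0979, edgeR adjusted p = 0.615). For Tle4, the 3 knockout libraries gave 103, 92.8 and 112 CPM and the 3 wild-type libraries 90.5, 92.3 and 96.0 CPM. The corepressor Tle4 had a log2 fold change of 0.14 (standard error 0.0724, edgeR adjusted p = 0.676), and knockout replicate 2 lay within the wild-type range. Foxp2 stood at 102, 116 and 120.1 CPM in knockout and at 118, 83.6 and 99.0 CPM in wild-type libraries. Wild-type replicate 2 was lowest for this forkhead factor, with a log2 fold change of 0.17 (standard error 0.119, edgeR adjusted p = 0.765). Without the libraries high in Krt5 Foxp2 passed at 0.37 (edgeR adjusted p = 0.0343), and without those high in Hoxb3 it turned to -0.057 (edgeR adjusted p = 0.893). Crym, which encodes a thyroid hormone-binding protein, was at 15.8 to 20.3 CPM in knockout and 12.97 to 17.9 CPM in wild-type libraries, a log2 fold change of 0.25 (standard error 0.147, edgeR adjusted p = 0.719).

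The basic helix-loop-helix factors Neurod1, Neurod2, Neurod6 and Bhlhe22 act as neurons differentiate. Levels of Neurod2 came to 276, 176 and 186 CPM in the knockout and 203, 164 and 169.6 CPM in the wild-type libraries. Knockout replicate 1, highest for Tbr1 too, was far above the other libraries, and without it the other 5 overlapped between the groups. Neurod6 measured 369.7, 259.7 and 322 CPM in the knockout libraries and 332, 293 and 261 CPM in the wild-type libraries. Knockout replicate 1 was highest and knockout replicate 2 lowest. The log2 fold changes were 0.25 (standard error 0.175) and 0.10 (standard error 0.134), with edgeR adjusted p of 0.779 and 0.887. Neurod1 was at 38.3 to 50.2 CPM in knockout and 42.6 to 47.4 CPM in wild-type libraries, a log2 fold change of -0.04 (standard error 0.101). In the knockout libraries Bhlhe22 was at 139, 94.1 and 95.3 CPM, and in the wild-type libraries at 134, 102 and 91.0 CPM. The libraries high in Krt5, replicate 1 of each group, were the highest for Bhlhe22, whose log2 fold change was 0.0088 (standard error 0.201).

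Vesicular glutamate transporters are encoded by Slc17a6, used across the embryonic brain, and Slc17a7, which is mostly cortical and comes on later. The values of Slc17a6 were 104, 107 and 115 CPM in knockout and 108, 120.3 and 117 CPM in wild-type libraries. Wild-type replicates 2 and 3 were the highest libraries, the 1 excitatory member for which that held. For Slc17a7, the 3 knockout libraries gave 34.1, 27.2 and 23.1 CPM and the 3 wild-type libraries 29.6, 28.6 and 28.5 CPM. The 3 wild-type values lay within the knockout range. Log2 fold changes were -0.085 (standard error 0.0625) and -0.041 (standard error 0.128), with edgeR adjusted p of 0.785 and 0.963. Reln, a secreted protein of Cajal-Retzius cells that guides layering, was abundant. Reln stood at 426, 448 and 367 CPM in knockout and at 421, 454 and 416 CPM in wild-type libraries. Knockout replicate 3 was lowest and wild-type replicate 2 highest, with a log2 fold change of -0.057 (standard error 0.0843, edgeR adjusted p = 0.903).

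**Figure D3:**
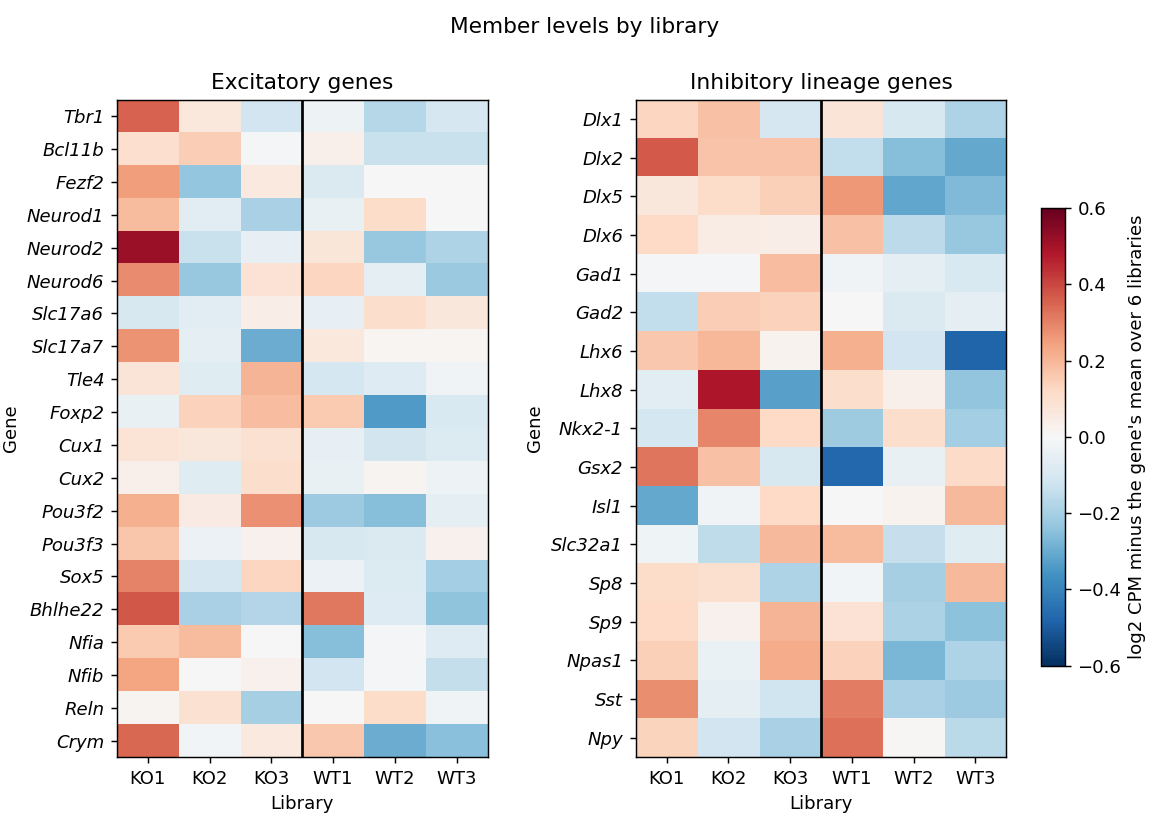
Colour gives log2 CPM of each gene minus its mean over the 6 libraries, with knockout libraries left of the black line and wild-type libraries right of it. Knockout replicate 1 is above the mean for 18 of 20 excitatory genes, and wild-type replicates 2 and 3 are above it for 4 and 3 of 17 inhibitory genes.

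Levels between genes can be compared per exon length. On the scale of CPM per kilobase of annotated exon, Neurod6 was the most abundant member at 142, followed by Sst at 100.3 and Neurod2 at 62.3 (means of 6 libraries). The lowest levels were those of Sp8 at 3.65, Npas1 at 2.63 and Gsx2 at 2.20. Slc17a6 at 20.7 was above Slc17a7 at 5.29, and Dlx1 at 27.7 above Dlx2 at 17.1. These levels use the length of all annotated exons together, which overstates the transcript length of genes with many alternative exons, such as Reln, Cux1 and Foxp2.

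Set against each other, the excitatory and inhibitory lists varied between libraries in different ways. Averaged over its genes as log2 CPM minus the gene's own mean, the excitatory list was at 0.19, -0.026 and 0.012 in knockout replicates and at -0.0095, -0.079 and -0.088 in wild-type replicates. Knockout replicate 1 alone stood high, and it was the highest library for 11 of the 20 excitatory genes. The inhibitory list was at 0.076, 0.090 and 0.032 in knockout replicates and at 0.060, -0.12 and -0.14 in wild-type replicates. Here wild-type replicates 2 and 3 stood low, and wild-type replicate 1 lay within the knockout range. The excitatory minus the inhibitory level was 0.11, -0.12 and -0.020 in knockout and -0.069, 0.036 and 0.055 in wild-type libraries. These differences overlapped between the groups, with the highest and the lowest library both knockout. With the median over members in place of the mean, wild-type replicate 3 was highest at 0.105 and knockout replicate 2 lowest at -0.141.

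The libraries low in the 17 listed inhibitory genes, wild-type replicates 2 and 3, were those high in Hox genes. They were also the lowest for the excitatory list, at -0.079 and -0.088. For the 25 further inhibitory lineage genes described below they were not set apart. Their sums there were 1680 and 1688 CPM, within the 1613 to 1697 CPM of the knockout libraries. Wild-type replicates 2 and 3 were both below each of the other 4 libraries for 8 of the 17 inhibitory genes and 5 of the 20 excitatory genes, against 14.6% of all tested genes. They were both above the rest for 0 inhibitory genes and 1 excitatory gene, against 16.1% of all tested genes. Summed over the 17 listed Hox genes, of which 8 were tested, the level was 168 and 43.7 CPM in wild-type replicates 2 and 3, 4.40 CPM in wild-type replicate 1 and 0.591 to 2.83 CPM in knockout libraries. The 18 midbrain and hindbrain regional genes summed to 322 and 323 CPM in wild-type replicates 2 and 3, against 195 to 292 CPM in the other 4 libraries. Of these genes 17 were tested, 0 passed, and the median log2 fold change was -0.27. The part of this tissue signal in the member values was not tested.

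**Figure D4:**
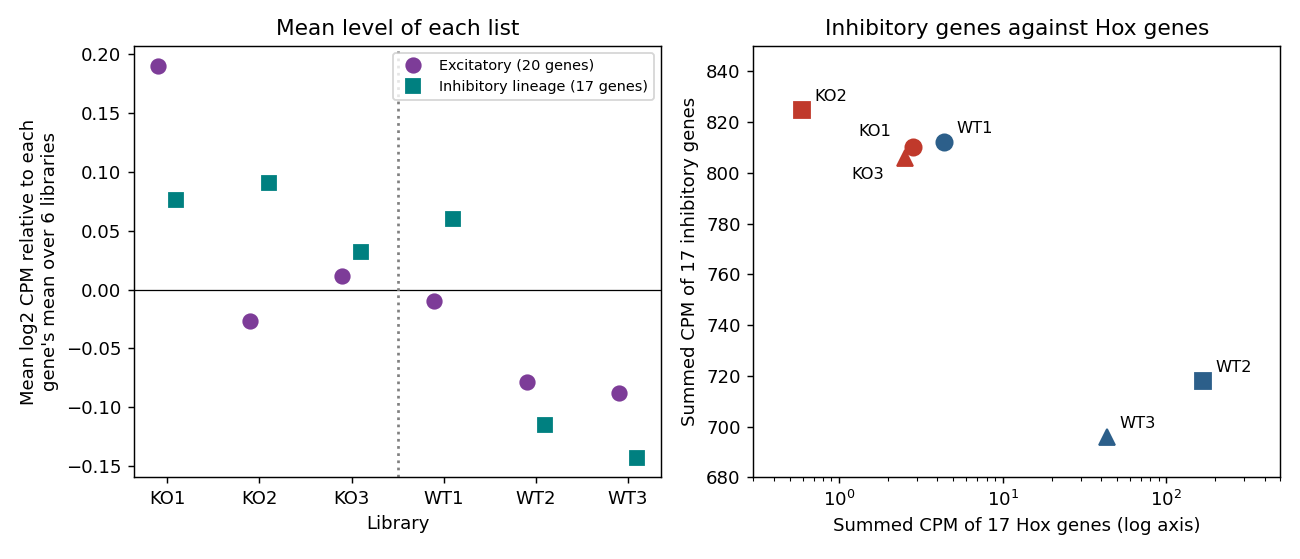
Left, the mean log2 CPM of the 20 excitatory (circles) and 17 inhibitory (squares) genes in each library, relative to each gene's mean over 6 libraries. Right, the summed CPM of the 17 inhibitory genes (axis not from 0) against the summed CPM of 17 Hox genes on a log axis, with knockout in red and wild-type in blue; wild-type replicates 2 and 3, at 718 and 696 CPM, lie apart from the other 4 libraries at 806 to 825 CPM.

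Without the wild-type libraries high in Hoxb3, 13 of the 37 members turned sign, the excitatory median log2 fold change was 0.072 and 14 of the 20 excitatory genes were above 0. Without wild-type replicate 3 the inhibitory median was 0.093. No excitatory gene passed with any single library left out, while the number of inhibitory genes that rose was 0 without any 1 library other than wild-type replicate 1 and 2 without that one (Dlx2 and Dlx5).

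**Figure D5:**
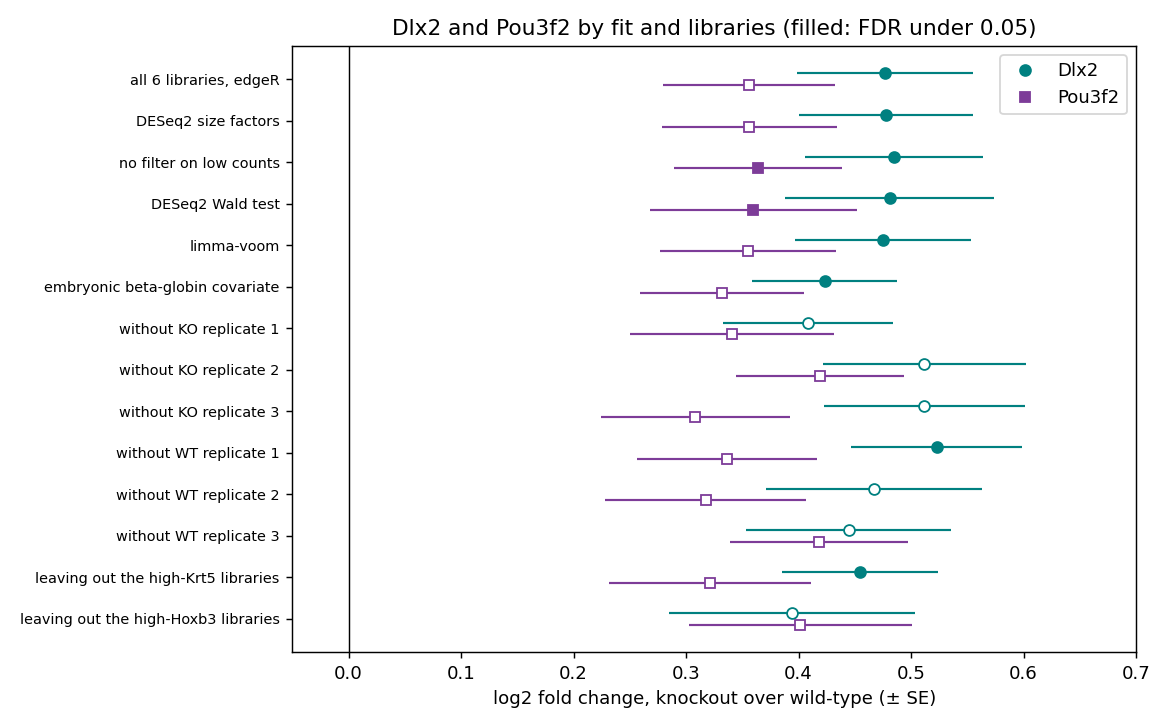
Log2 fold changes of Dlx2 (circles) and Pou3f2 (squares), knockout over wild-type, with 1 standard error to each side, for the edgeR fit on all 6 libraries, other tests and scalings, and fits that leave libraries out; filled symbols are past a false discovery rate of 0.05. The values run from 0.39 to 0.52 for Dlx2 and from 0.31 to 0.42 for Pou3f2.

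Other genes of the same lineages moved little. Of 25 further excitatory lineage genes, 0 passed, 22 were above 0 and the median log2 fold change was 0.13. The lowest p-values were those of the netrin receptor Unc5d at 0.22 (standard error 0.0771), the semaphorin receptor Plxna4 at 0.27 (standard error 0.0972) and the nuclear receptor Rorb at 0.37 (standard error 0.148), with edgeR adjusted p of 0.478, 0.488 and 0.551. Of 25 further inhibitory lineage genes, 0 passed, 10 were above 0 and the median was -0.018. Penk, a striatal enkephalin precursor also made in the hindbrain, was at -0.54 (standard error 0.170) and the nuclear receptor Nr2f1 at -0.15 (standard error 0.0590), with edgeR adjusted p of 0.394 and 0.533. Levels of Penk came to 12.3, 12.2 and 14.6 CPM in the knockout and 14.2, 23.2 and 19.6 CPM in the wild-type libraries. The highest libraries for Penk were those high in Hoxb3. At an unadjusted p under 0.05 in edgeR, 3 of the 25 further excitatory genes were higher and 0 lower. Of the 25 further inhibitory genes 0 were higher and 2 lower. Over all genes the share in either direction was 8.09%.

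Broad markers gave the setting of these values. Of 15 pan-neuronal genes 0 passed, with a median log2 fold change of 0.022 and summed levels of 8301 to 9035 CPM in knockout and 8403 to 9576 CPM in wild-type libraries. In this list the neurofilament genes Nefm, at -0.57 (standard error 0.123, edgeR adjusted p = 0.139), and Nefl, at -0.43 (standard error 0.130, edgeR adjusted p = 0.374), had each knockout value below each wild-type value. Such genes were 2 of the 15, against 6.58% of all genes. Both were highest in wild-type replicate 2, the library highest in Hoxb3. In wild-type replicates 1, 2 and 3 Nefm was at 163, 231 and 187 CPM and Nefl at 127, 164 and 120 CPM. Of 12 forebrain regional genes 0 passed (median 0.10, 703 to 794 CPM in knockout and 673 to 728 CPM in wild-type). Of 12 radial glia genes 0 passed (median 0.044, 2882 to 2980 CPM in knockout and 2720 to 2922 CPM in wild-type). For 5 of the 12 radial glia genes each knockout value was above each wild-type value, against 7.84% of all genes. For 0 of them each was below, and 4 of the 12 had negative log2 fold changes. Epidermal genes, 0 of 12 called, summed to 40.4 to 571 CPM in knockout and 33.1 to 491 CPM in wild-type libraries, and craniofacial mesenchyme and cartilage genes, 0 of 10 tested called, to 243 to 299 and 241 to 284 CPM. Cranial ganglion genes, 0 of 9 tested called, summed to 52.5 to 71.0 CPM in knockout and 63.1 to 97.0 CPM in wild-type libraries. For retina and lens genes, 0 of 6 tested called, the sums were 6.39 to 6.54 and 7.33 to 9.59 CPM, and for choroid plexus genes, 0 of 7 called, 668 to 1403 and 1011 to 1140 CPM. Erythroid genes, 0 of 9 called, summed to 1485 to 3487 CPM in knockout and 972 to 2405 CPM in wild-type libraries. Dlx5, Dlx6, Lhx8 and Isl1 are among the members also expressed in craniofacial or ganglion tissue. The part of such tissue in the values of any member, Dlx2 included, was not tested.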

How the data were processed

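Whole-brain RNA of 6 embryos was sequenced, 3 Mfsd7c-/- and 3 wild-type, grouped by their titles. Per the submitters' processing notes, STAR 2.5.2a, featureCounts and DESeq2 1.12.4 were used, with the builds mm10 and hg19 listed without a role. For the strand setting and annotation release, no source used here gives one. The authors deposited raw counts per gene symbol with no normalization, as whole numbers. Per the file headers, the authors' table gives the mean normalized signal, log2 fold changes and their errors, the Wald statistic as a score, and raw and adjusted p-values.

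Counts were filtered with filterByExpr (edgeR 4.0.16) and scaled by TMM. The robust quasi-likelihood test compared knockout with wild-type, with Benjamini-Hochberg adjustment over 19565 genes. CPM use TMM-scaled library sizes, and relative levels use log2 CPM with a prior count of 2. The common biological coefficient of variation was 15.3%. Library totals were 43784619 to 50549673. No replicate pair agreed within sampling noise. Coordinates and exon lengths are from GENCODE M21 on GRCm38, promoters from RefSeq on GRCm38.p6. The genes and lists were chosen with earlier results of these data known.

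All members are named. Values in each library were to be given for members past the threshold, the 8 with the lowest p in each list and 10 further ones, and are given for most others too; in further lineage lists the 3 with the lowest p are named, except 1 that is not reported here. Alternatives were DESeq2 size factors, no low-count filter, DESeq2 1.42.0, limma-voom in limma 3.58.1, a replicate block, an embryonic beta-globin covariate, single libraries left out, and pairs of libraries that stand apart left out. Computations ran in R 4.3.3 and Python 3.11.15.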

Additional observations from a re-analysis of the deposited data

How the results depend on the processing

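Of the 37 members, 19 kept the sign of their log2 fold change in all 14 alternative fits, and 18 turned in at least 1. Counts below are excitatory members higher, inhibitory members higher, all genes higher and all genes lower, against 0, 1, 122 and 7. No member was called lower in any fit. They were 1, 1, 190 and 21 without a low-count filter, 1, 1, 251 and 58 by the Wald test of DESeq2, 1, 1, 217 and 46 with the embryonic beta-globin covariate, 1, 2, 265 and 194 without the libraries high in Krt5, and 0, 0, 16 and 4 without those high in Hoxb3. The excitatory member was Pou3f2 in the first and second of these fits, Nfia in the third and Foxp2 in the fourth. DESeq2 size factors and limma-voom called 0 excitatory and 1 inhibitory member. Without single libraries 0 excitatory and 0 to 2 inhibitory members were higher, 33 to 233 genes were higher and 3 to 155 lower. The cause was not tested.

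The inhibitory median log2 fold change was -0.025 without the libraries high in Hoxb3. In that fit the log2 values turned to 0.032 for Neurod1, -0.060 for Neurod6, 0.012 for Slc17a6, -0.057 for Foxp2, -0.28 for Bhlhe22, -0.021 for Crym, -0.15 for Dlx5, -0.10 for Dlx6, -0.079 for Lhx6, -0.029 for Lhx8, -0.17 for Slc32a1, -0.025 for Npas1 and -0.26 for Sst. With the covariate they were -0.018 for Fezf2, -0.045 for Neurod6, -0.16 for Bhlhe22, -0.075 for Slc32a1 and -0.067 for Sst. Without the libraries high in Krt5 they were -0.080 for Fezf2, -0.025 for Bhlhe22 and -0.049 for Sp8. Without single libraries the ranges that crossed 0 were -0.20 to 0.18 for Bhlhe22, -0.052 to 0.19 for Fezf2, -0.16 to 0.27 for Lhx8, -0.16 to 0.043 for Neurod1, -0.019 to 0.23 for Neurod6, -0.23 to 0.025 for Npy, -0.12 to 0.022 for Reln, -0.20 to 0.084 for Slc17a7, -0.087 to 0.12 for Slc32a1, -0.081 to 0.12 for Sp8 and -0.074 to 0.25 for Sst.

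Deviations of same-numbered libraries from their group means correlated at 0.587, 0.310 and 0.0337 for numbers 1, 2 and 3. The 0.587 of number 1, the libraries high in Krt5, was the highest of any knockout with any wild-type library. The main fit took the samples to share only a number, a choice that these values do not settle. The replicate block gave 1 excitatory member (Pou3f2), 1 inhibitory member (Dlx2), and 212 genes higher and 70 lower. The best match of knockout replicate 2 was wild-type replicate 3, at 0.478.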
